A study of Homo sapiens with 6 samples.

Results

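The genes described here are 9 of the 58273 rows of the expression table: the histone variant genes H2AFX, H2AFZ, H2AFV, H2AFY, H2AFY2, H3F3A, H3F3B and H1FX, and SLBP, chosen by their symbols and not by their values. The variant genes stand apart from the replication-dependent histone genes of the HIST clusters, which give RNA mainly in S phase. RNA was sequenced from 6 libraries, 3 of Daudi-shENO1 cells, which carry a short hairpin RNA against the glycolytic enzyme gene ENO1, and 3 of wild type Daudi cells. Daudi is labelled as a Burkitt lymphoma line, that is, a tumour line of B cells. Neither group is given a further treatment in the labels, no library of a control hairpin was analysed here, and the hairpin and wild type cells are of 1 line. The replicates are numbered 1 to 3, with no statement that they were separate cultures, so p-values measure the spread between these libraries, which may be technical. Values are FPKM, fragment numbers corrected for the length of the transcript and the size of the library, and the study compared these groups to find genes that change with ENO1 knockdown.

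Most histone protein is made in S phase, when the cell needs new nucleosomes for the copied DNA. Replication-dependent histone RNAs have no poly(A) tail. They end just after a short stem-loop, and SLBP, the stem-loop binding protein, holds that hairpin during processing, export and translation. Variant histones are made from separate genes with polyadenylated RNA, some of them throughout the cell cycle, and are placed in chromatin outside replication by their own chaperones: H2A.Z at promoters, H3.3 at active genes and at telomeres, macroH2A on silent chromatin. H2A.X is the variant whose tail is phosphorylated around DNA breaks, and H1X is a linker histone, a protein that binds the DNA that enters and leaves the nucleosome.

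The labels were checked first. ENO1 was at 212, 242 and 368 FPKM in shENO1 libraries, against 927, 998 and 1747 FPKM in wild type libraries. The shENO1 mean was 22.4% of the wild type mean, with a log2 fold change of -2.14 (SE 0.29). It did not pass the test (limma, adjusted p = 0.518), while it passed when the replicate number entered as a block (limma, adjusted p = 0.00374). The groups did not overlap, with an exact permutation p of 0.1, two-sided, the smallest that 3 against 3 can give. The cell type label was also set against markers. Of 9 B cell markers 6 passed the filter on low values. CD79B and BLK were at 0 in all 6 libraries and MS4A1 reached no more than 0.101 FPKM, although CD74 ranged over 85.8–187 FPKM, CD37 over 69.9–111 FPKM and CD22 over 3.18–5.10 FPKM. Of 12 markers of myeloid precursors, 11 passed the filter on low values, CTSG at 236–536, LYZ at 154–482 and CEBPA at 150–222 FPKM, while MPO reached no more than 0.161 FPKM. Of 8 T cell markers CD3G, CD7 and LCK were at 0, and the highest were CD5 (at most 1.92 FPKM), CD2 and ZAP70. Of 6 erythroid markers the highest, EPOR, KLF1 and HBB, reached no more than 3.41 FPKM. The summed B cell markers were at 222, 235 and 167 FPKM in shENO1 libraries, against 262, 311 and 202.5 FPKM in wild type libraries, lower in shENO1 at each number. CD74 (log2 differences within a number of -0.25, -0.49 and -0.39) and CD37 (-0.25, -0.30 and -0.13), the most abundant of these markers, were lower in each pair as well. The markers did not all go 1 way. Of the 6 B cell markers tested, 4 were below 0 in log2 fold change and 2 above. The 4 below 0 were lower in each pair, with CD22 at -0.12, -0.18 and -0.60 and PAX5 at -0.75, -0.04 and -0.21. The groups of CD22 did not overlap, which held, with shENO1 lower, for 3.28% of all genes tested. EBF1 was higher in each pair (0.35, 0.19 and 0.12), and CD79A, also above 0, was mixed (0.94, -0.44 and 0.62). The summed myeloid precursor markers were at 913–1461 FPKM in shENO1 and 859–1417 FPKM in wild type. Both sums overlapped between the groups. The part of these markers in any result below was not tested. The libraries are therefore called by their labels only. In both groups the library numbered 3 was unlike the other 2, and the differences of the genes described are given with and without them. In such bulk samples, fewer cells of a state and less RNA per cell cannot be told apart.

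The ends of the RNAs are shown first, because they are what separates the 2 kinds of histone gene. In the GENCODE 29 transcripts (build GRCh38) a stem-loop of 16 bases was searched, a stem of 6 base pairs with a loop of 4 bases. It was present in 31 of 71 replication-dependent histone symbols, many of whose models stop at or near the stop codon, in 82 of 19588 other genes (0.419%), and in 1 of the 9 genes described here. That gene was H2AFX. The windows are shown 5′ to 3′ on the transcript strand with the stem-loop in capitals, beside that of HIST1H4H, an H4 gene among the 4 most abundant replication-dependent rows. The H2AFX window is chr11:119094891-119094920 (minus strand), and that of HIST1H4H is chr6:26285124-26285153 (minus strand).
H2AFX stem-loop: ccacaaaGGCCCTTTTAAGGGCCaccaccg
HIST1H4H stem-loop: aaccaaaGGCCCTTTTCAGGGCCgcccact

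H2AFX also has the other kind of end. In transcript H2AFX-202, of 1614 bases, the stem-loop starts at base 555 and a polyadenylation signal at base 1570. A model that runs on past the stem-loop is not particular to H2AFX. The stem-loop starts at base 450 of 2194 in HIST2H2BE-201 and at base 432 of 2364 in HIST3H2BB-201. Polyadenylation signals of the replication-dependent genes are not given here. The signals AATAAA and ATTAAA were searched in the last 60 bases of each transcript, and were present in 44.8% of 83129 protein coding transcripts, in 12 of 36 transcripts of the genes described here, and in at least 1 transcript of 8 of the 9 genes. The exception was H2AFY, whose annotated ends did not hold these letters. A few of the windows are given, again with the signal in capitals: H2AFX at chr11:119093881-119093910 (minus), H2AFZ at chr4:99948090-99948119 (minus), H3F3B at chr17:75776436-75776465 (minus) and SLBP at chr4:1692803-1692832 (minus).
H2AFX signal: tggactaattttATTAAAggattgtttttt
H2AFZ signal: gtggataagttcAATAAAggtcatatccca
H3F3B signal: ggatgagactaaAATAAAatttttgaagtt
SLBP signal: ggatattgcaaaAATAAAaaggaaagaacc

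All 9 genes were matched to RefSeq and had promoter windows there (GRCh38.p14, 250 bases before to 50 after the start). CCAAT, read as CCAAT or ATTGG, was in 34.6% of 35116 promoters, and 3 or more copies were in 3.26%. TATAAA, on either strand, was in 11.5%, and both motifs were in 4.58%. The 2 motifs share no letters in the windows shown. H2AFX and H3F3B each had 4 CCAAT motifs and 1 TATAAA, and H2AFZ had 3 and 1. H2AFV had 4 CCAAT motifs and no TATAAA, H1FX had 1 TATAAA and no CCAAT, and the SLBP and H2AFY2 windows had neither. H3F3A, with 4 annotated windows, had at most 1 CCAAT in each, and the 2 windows of H2AFY had 2 and 0. The stretch of 250 bases before the start is printed for the 3 genes that held both motifs, with the motifs in capitals. A match of letters is a description and not a binding site. The windows are chr11:119095466-119095715 for H2AFX, chr4:99950276-99950525 for H2AFZ and chr17:75779780-75780029 for H3F3B, all on the minus strand.
H2AFX promoter: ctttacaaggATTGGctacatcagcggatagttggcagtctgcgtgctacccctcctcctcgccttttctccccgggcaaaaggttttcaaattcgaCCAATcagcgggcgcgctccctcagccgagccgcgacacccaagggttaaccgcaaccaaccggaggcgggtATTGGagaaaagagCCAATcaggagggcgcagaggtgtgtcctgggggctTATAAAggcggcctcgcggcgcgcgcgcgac
H2AFZ promoter: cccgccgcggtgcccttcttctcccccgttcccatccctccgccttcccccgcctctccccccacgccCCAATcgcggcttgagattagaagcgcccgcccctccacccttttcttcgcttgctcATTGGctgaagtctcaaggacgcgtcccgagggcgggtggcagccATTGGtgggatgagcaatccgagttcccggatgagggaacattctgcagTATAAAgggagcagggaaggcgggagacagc
H3F3B promoter: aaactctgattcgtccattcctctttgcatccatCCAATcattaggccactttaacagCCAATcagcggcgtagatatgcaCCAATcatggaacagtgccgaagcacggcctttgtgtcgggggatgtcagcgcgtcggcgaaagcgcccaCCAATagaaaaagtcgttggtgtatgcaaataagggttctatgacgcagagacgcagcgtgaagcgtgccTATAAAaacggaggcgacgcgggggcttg

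The variant genes and SLBP were well above the filter in all 6 libraries, with 1 exception. H2AFY2 was listed at 0 in each of them. The other 8 were tested, each with a mean of at least 40 FPKM. FPKM divides by the annotated length, so the levels can be set side by side, but only roughly. Fragments shared with overlapping or copied genes can shift them. So can the end in use, where a model holds both kinds, as for H2AFX. H2AFZ had the highest mean over the 6 libraries, 549 FPKM, and its lowest library, at 384 FPKM, was above all values of the other genes. H3F3A (mean 284 FPKM), H2AFY (270 FPKM) and H3F3B (235 FPKM) came next, and their ranges overlapped. H2AFV followed at 163 FPKM, its highest libraries level with the lowest of H3F3B, then H1FX at 105, H2AFX at 99.9 and SLBP at 94.2 FPKM, of which the last 3 overlapped.

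**Figure D1:**
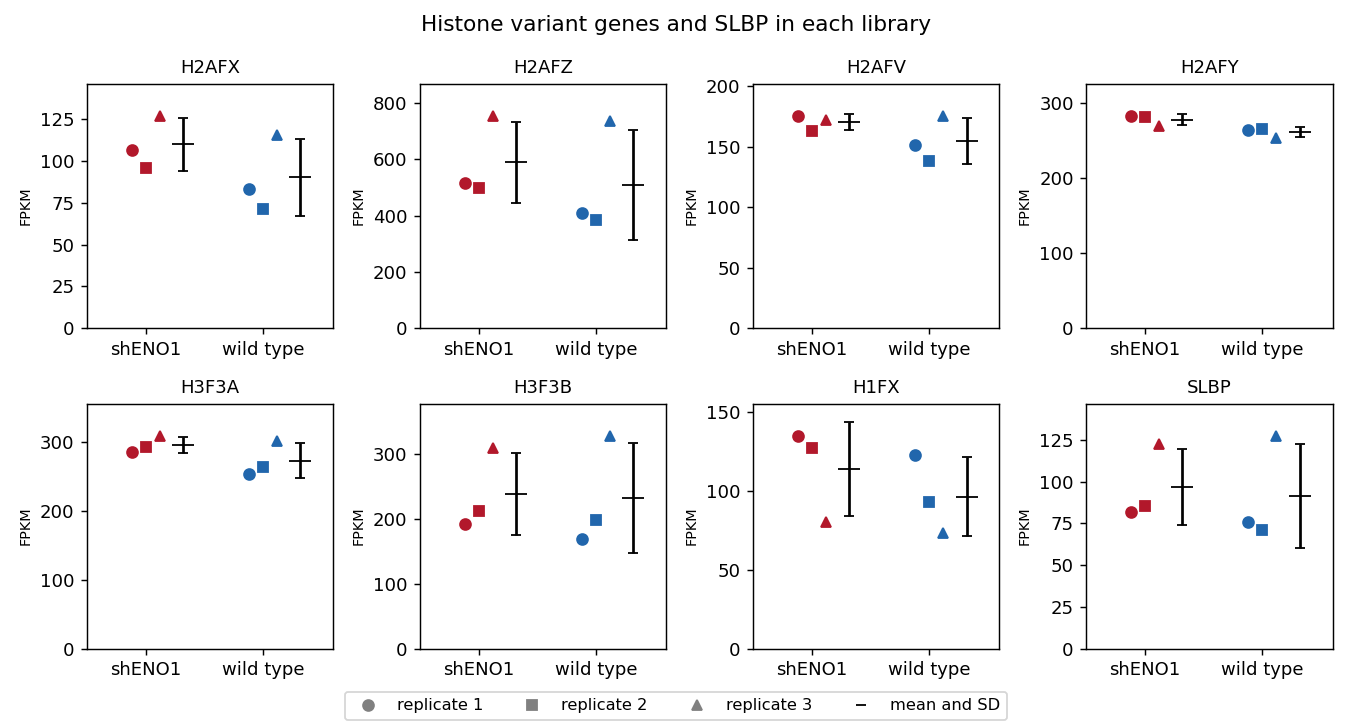
FPKM of the 8 tested genes in each library, shENO1 on the left and wild type on the right of each panel, with marker shapes for the replicate number and a black bar for mean and SD (n = 3 each). Each axis starts at 0. In 7 panels the groups overlap, and in that of H2AFY the 3 shENO1 values of 269–283 FPKM lie above the 3 wild type values of 254–266 FPKM.

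Between shENO1 and wild type, 0 of the 8 genes passed the test (limma, adjusted p under 0.05 and more than 1 log2 unit in either direction), nor did any of the 17870 genes tested (0%). At an unadjusted p under 0.05, 0 of the 8 passed, against 353 of all genes (1.98%, or 0.903% of the genes with a mean of at least 40 FPKM). With the replicate number as a block 0 of the 8 were called again, against 1 gene of all (0.0056%, or 0.0347% of those at or above 40 FPKM). In that fit 3 of the 8 had an unadjusted p under 0.05, against 7.55% of all genes and 11.5% of those at or above 40 FPKM. The log2 fold change was above 0 for 8 of the 8, against 49.2% of all genes and 55.7% of those at or above 40 FPKM. That count was 6 without wild type replicate 2 or without shENO1 replicate 3, and 7 without wild type replicate 1. For 5 of the 8 it was above 0 in all 3 same-numbered pairs, against 14.1% of all genes and 19.9% of those at or above 40 FPKM. Its median was 0.13, beside 0.02 over the genes at or above 40 FPKM. The largest differences were those of H2AFX, H2AFZ and H1FX, and the 95% interval of each included 0.

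H2AFX (chr11:119093854-119095467, minus strand) encodes H2A.X, the variant phosphorylated at sites of DNA damage. It was at 107, 95.6 and 127 FPKM in shENO1 libraries, against 83.4, 71.4 and 115 FPKM in wild type libraries. Within each number the shENO1 library was the higher, but the groups overlapped, since wild type replicate 3 was above shENO1 replicates 1 and 2. The log2 fold change was 0.30 (SE 0.20, 95% interval -0.17 to 0.77, limma adjusted p = 0.99986). The same-numbered differences were 0.35, 0.42 and 0.14 on the log2 scale. Without both libraries numbered 3 the log2 fold change was 0.39 (SE 0.12, limma adjusted p = 0.986).

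H2AFZ and H2AFV encode the 2 forms of H2A.Z, a variant placed at promoters and enhancers by the SRCAP and p400 complexes. H2AFZ (chr4:99948086-99950388, minus strand, overlapped by the antisense gene AC097460.1) was at 515, 498 and 754 FPKM in shENO1 libraries, against 409, 384 and 734 FPKM in wild type libraries. The 2 libraries numbered 3 were nearly level and far above the other 4. The log2 fold change of 0.25 (SE 0.28) had a wide interval, -0.41 to 0.91. H2AFV (chr7:44826791-44848083, minus strand) was at 176, 163 and 172 FPKM in shENO1 libraries, against 151, 138 and 176 FPKM in wild type libraries. It was among the steadiest of the genes, with a log2 fold change of 0.14 (SE 0.12, interval -0.15 to 0.44). Wild type replicate 3 was within the range of the shENO1 libraries, and the other wild type libraries were below it.

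H2AFY and H2AFY2 encode the macroH2A proteins, H2A variants with a large additional globular domain that are enriched on the inactive X chromosome and other silent chromatin. H2AFY (chr5:135333900-135399914, minus strand, with antisense genes C5orf66 and AC026691.1 on the other strand) was at 283, 281 and 269 FPKM in shENO1 libraries, against 264, 266 and 254 FPKM in wild type libraries. It varied least of all, with a highest value 1.12 times its lowest, and it was the 1 gene of the 8 whose groups did not overlap. Such a separation was found in 5.99% of the genes tested, with shENO1 higher in 2.71% and lower in 3.28%, and in 4.9% of those at or above 40 FPKM (3.16% higher, 1.74% lower). The log2 fold change was 0.09 (SE 0.10, interval -0.14 to 0.32), and the exact permutation p was 0.1, the smallest this design can give. H2AFY2 (chr10:70052796-70112280, plus strand, overlapping AIFM2) was listed at 0 in all 6 libraries, so no ratio of the 2 macroH2A genes is given.

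H3F3A and H3F3B encode the same protein, H3.3, from RNAs that differ, and HIRA or ATRX with DAXX place it in chromatin. H3F3A (chr1:226061851-226072001, plus strand, with AL512343.2 antisense) was at 286, 292 and 309 FPKM in shENO1 libraries, against 253, 264 and 301 FPKM in wild type libraries. The log2 fold change was 0.12 (SE 0.11, interval -0.15 to 0.39), and wild type replicate 3 was again the value that lay within the shENO1 range. H3F3B (chr17:75776434-75785893, minus strand, overlapping UNK and MIR4738) was at 192, 213 and 310 FPKM in shENO1 libraries, against 169, 199 and 329 FPKM in wild type libraries. Here the highest library was wild type replicate 3, and the log2 fold change of 0.07 (SE 0.28) had an interval of -0.60 to 0.73. The difference of H3F3B turned below 0 in the absence of wild type replicate 1 (-0.13), of wild type replicate 2 (-0.01) or of shENO1 replicate 3 (-0.14), so no direction is given for it.

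H1FX encodes H1X, a linker histone. H1FX (chr3:129314771-129316277, minus strand, with H1FX-AS1 on the other strand) was at 135, 127 and 79.8 FPKM in shENO1 libraries, against 123, 92.6 and 73.1 FPKM in wild type libraries. The shENO1 library was the higher at each number, while the groups overlapped, and the log2 fold change was 0.24 (SE 0.26, interval -0.37 to 0.84).

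SLBP (chr4:1692800-1712555, minus strand) was at 82.0, 85.7 and 123 FPKM in shENO1 libraries, against 75.9, 70.9 and 128 FPKM in wild type libraries. The log2 fold change was 0.11 (SE 0.26, interval -0.50 to 0.72). The difference turned below 0 without wild type replicate 2 (-0.05) or shENO1 replicate 3 (-0.07). As for H3F3B, the 2 libraries numbered 3 were the highest and wild type the higher of them.

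**Figure D2:**
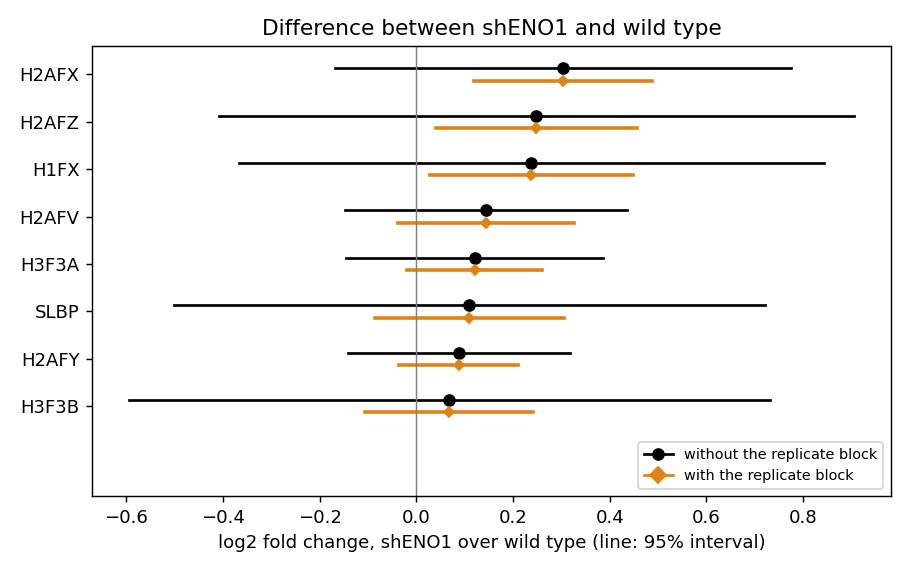
Log2 fold change of shENO1 over wild type for the 8 tested genes, on the scale of log2(FPKM + 0.5), with 95% intervals from limma without (black) and with (orange) the replicate block. All 8 black intervals include 0, while with the block those of H2AFX, H2AFZ and H1FX lie above 0, none of which passed after adjustment over all genes (0.589, 0.635 and 0.640).

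For 5 of the 8 genes the step between replicate 3 and the mean of replicates 1 and 2 was larger, in both groups, than the difference between shENO1 and wild type, and for 7 of the 8 it was so as a mean of the groups. In the libraries numbered 3, H2AFZ was 0.57 higher on the log2 scale than the mean of replicates 1 and 2 in shENO1 and 0.89 higher in wild type. H3F3B was 0.62 and 0.84 higher, SLBP 0.55 and 0.79, and H2AFX 0.33 and 0.58, with shENO1 given before wild type. The linker histone went the other way, as H1FX was lower by 0.71 in shENO1 and 0.54 in wild type. H2AFY, H3F3A and H2AFV moved by 0.28 or less in either group. In all, 6 of the 8 genes were higher in replicate 3 of both groups, and 2 were lower in both. Among the genes at or above 40 FPKM, 56.4% were higher in both and 30.6% lower in both. A difference over 0.5 in both groups was found for 14.4% of those genes upward and for 4.65% downward. Without both libraries numbered 3 the log2 fold changes of shENO1 over wild type kept their signs. They were 0.35 for H2AFZ, 0.23 for H2AFV, 0.09 for H2AFY, 0.16 for H3F3A, 0.14 for H3F3B, 0.29 for H1FX and 0.19 for SLBP. In that fit 0 of the 8 were called (limma, lowest adjusted p = 0.961). An unadjusted p under 0.05 was found for 2 of the 8, against 879 of the 17870 genes tested. With 1 such library in each group no test of the number was made, and the labels do not say what the number stands for.

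**Figure D3:**
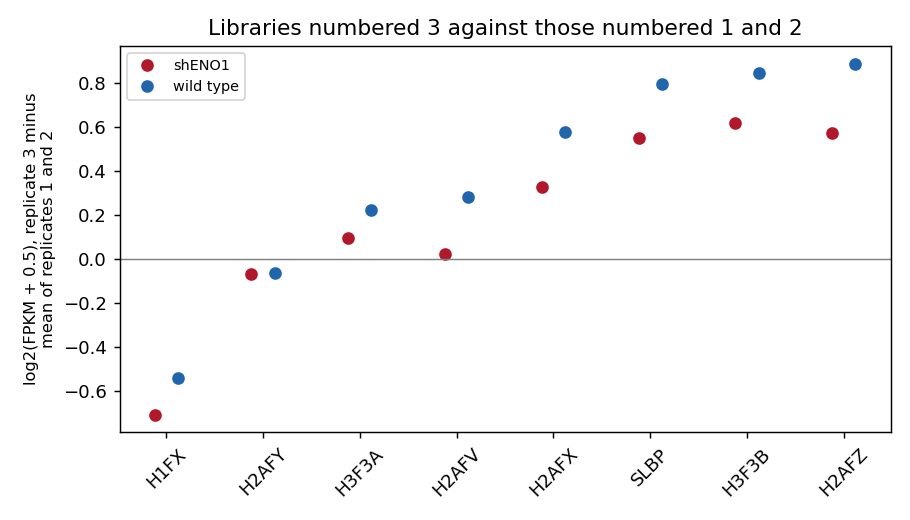
Log2(FPKM + 0.5) of replicate 3 minus the mean of replicates 1 and 2, for each of the 8 genes, in shENO1 (red) and wild type (blue). H1FX lies at -0.71 in shENO1 and -0.54 in wild type, and H2AFZ, H3F3B and SLBP between 0.55 and 0.89.

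A ratio of 2 genes taken within a library does not depend on how that library was scaled. H3F3A over H3F3B was at 1.49, 1.38 and 0.996 in shENO1 libraries, against 1.502, 1.33 and 0.917 in wild type libraries. The 2 H3.3 genes were thus close in replicate 3 and H3F3A the higher in the others, with no separation of the groups (difference 0.05 on the log2 scale, exact permutation p = 0.8, two-sided, and 0.02 without both libraries numbered 3). H2AFZ over H2AFV was at 2.93, 3.05 and 4.38 in shENO1 libraries, against 2.71, 2.79 and 4.18 in wild type libraries, a difference of 0.10 (exact permutation p = 0.5, two-sided, or 0.75 adjusted over 3 ratios, the H2AFY ratio included). It was 0.12 without both libraries numbered 3. The shENO1 library was the higher at each number, and the step to replicate 3 was larger than any difference between the groups.

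**Figure D4:**
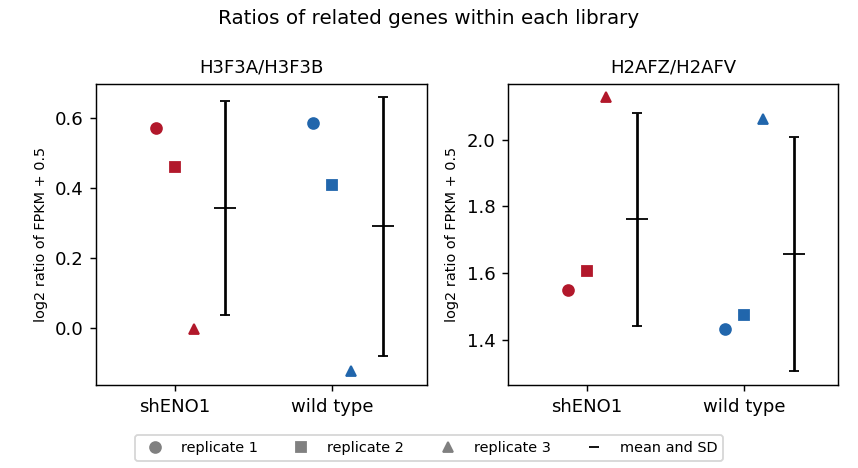
Log2 ratio of FPKM + 0.5 for 2 pairs of related genes in each library, shENO1 on the left and wild type on the right, with mean and SD in black (n = 3 each) and a separate vertical scale in each panel. Both ratios overlap between the groups, and in both panels replicate 3 (triangles) lies apart from the other replicates.

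The replication-dependent histones were set beside the variants. Of 72 such protein coding rows 55 were tested and 0 were called. Of the 55, 54 were above 0 on the log2 scale and their median was 0.38, beside 8 of 8 (6 or 7 with some of the libraries left out) and 0.13 for the variants and SLBP. Groups did not overlap for 12 of them, with shENO1 higher in each (2.71% of all genes), and 8 had an unadjusted p under 0.05 (1.98% of all genes), or 35 with the replicate block (7.55% of all genes). Their shift was known from these data before the lists were chosen, so it is no independent support. The same-numbered medians were 0.43, 0.59 and 0.11 for these rows, beside 0.18, 0.26 and 0.04 for the variants and SLBP. In both lists pair 3 had the smallest difference. HIST1H2AM, an H2A gene and the most abundant row, was at 2019, 1831 and 1842 FPKM in shENO1 libraries, against 1446, 1154 and 1469 FPKM in wild type libraries. The H4 gene HIST1H4H was at 1626, 1498 and 2273 FPKM in shENO1 and at 1079, 954 and 1962 FPKM in wild type, and this row did follow the number as H2AFZ did. The H2B genes HIST1H2BO and HIST1H2BJ averaged 1451 ± 145 and 1353 ± 104 FPKM in shENO1 and 1129 ± 255 and 995 ± 285 FPKM in wild type (SD, n = 3 each). None of the 4 passed (limma, adjusted p = 0.99986 each).

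SLBP was set against the summed RNA of the replication-dependent rows, which were chosen by symbol and not by a stem-loop. The search above found the stem-loop in 31 of 71 of these symbols, and H2AFX is not in the sum. The sum over the 72 rows was 23910, 20459 and 21721 FPKM in shENO1 libraries, against 17631, 13396 and 19196 FPKM in wild type libraries, with no overlap. That sum was 292, 239 and 177 times the SLBP level in shENO1 libraries, against 232, 189 and 150 times in wild type libraries. The ratio was higher in shENO1 at each number and lowest in replicate 3 of both groups, and the groups overlapped. The 8 variant genes together made 6.61%, 7.55% and 8.52% of the FPKM of all histone genes counted here in shENO1 libraries, against 7.61%, 9.55% and 9.36% in wild type libraries. At each number the share was lower in shENO1, and the groups overlapped. The sources used here do not say whether RNA with poly(A) was selected before sequencing.

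The chaperones and partners of the variants were counted from lists of known members. None of their genes was called. For these lists and those below, the share of all genes with a log2 fold change above 0 was 49.2%. It was 55.7% of the genes at or above 40 FPKM. Of 10 genes listed as H3 and H4 chaperones of replication or their partners, 10 were above 0 in log2 fold change and the median was 0.11. CHAF1B, a subunit of CAF-1, was at 18.3, 16.8 and 21.2 FPKM in shENO1 and at 14.6, 10.3 and 20.2 FPKM in wild type (0.35, SE 0.25). ASF1B, which hands H3 and H4 to CAF-1, had 0.32 (SE 0.20) and CHAF1A, the large subunit, 0.16 (SE 0.15). Of 7 chaperones of H3.3, 5 were above 0 and 2 below, with a median of 0.01. ATRX was at 32.7, 32.01 and 25.8 FPKM in shENO1 and at 36.6, 36.8 and 29.5 FPKM in wild type (-0.18, SE 0.16), lower at each number but overlapping. ASF1A (0.12, SE 0.22) and UBN2 (0.05, SE 0.18), a partner of HIRA, moved by less than their error.

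Of 13 subunits of the H2A.Z exchange complexes, 6 were above 0 and 7 below, with a median of -0.02. ACTR6, an actin-related subunit of SRCAP, was at 12.99, 12.4 and 10.9 FPKM in shENO1 libraries and at 9.76, 10.3 and 10.03 FPKM in wild type libraries, with no overlap (0.26, SE 0.15). EP400, the motor of the p400 complex, was at 28.4, 27.8 and 28.5 FPKM in shENO1 and at 31.7, 29.4 and 29.3 FPKM in wild type, also with no overlap but lower (-0.09, SE 0.12). Among all genes tested, 2.71% had no overlap with shENO1 higher and 3.28% with shENO1 lower. ACTL6A had 0.21 (SE 0.18). Of 8 further histone chaperones, listed under H2A and H2B though not all are particular to them, 2 were above 0 and 6 below, with a median of -0.09. NAP1L1 was at 400.3, 411 and 344 FPKM in shENO1 and at 448, 448 and 385 FPKM in wild type (-0.15, SE 0.12). Nucleolin, NCL, showed the number again, at 234, 267 and 529 FPKM in shENO1 and at 243, 300.03 and 629 FPKM in wild type (-0.16, SE 0.42), and SPTY2D1 had -0.24 (SE 0.21).

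Of 19 genes listed for histone RNA, most but not all for its processing or decay, 7 were above 0 and 12 below, with a median of -0.03. CASP8AP2, known as FLASH and needed to cut histone RNA after the stem-loop, was at 27.4, 23.1 and 23.3 FPKM in shENO1 libraries and at 21.9, 19.0 and 22.3 FPKM in wild type libraries. Its groups did not overlap (0.22, SE 0.14), which held, with shENO1 higher, for 2.71% of all genes tested. CPSF2, a subunit of the cleavage complex, had 0.13 (SE 0.15), and ERI1, the exonuclease that trims the stem-loop, 0.10 (SE 0.13). Of 13 genes of H2A.X signalling, kinases of H2A.X included, 8 were above 0 and 5 below, with a median of 0.02. MDC1, which binds phosphorylated H2A.X, was at 44.4, 51.1 and 21.5 FPKM in shENO1 and at 49.5, 53.1 and 43.8 FPKM in wild type. Its log2 fold change of -0.41 (SE 0.31) rested mostly on shENO1 replicate 3. The ubiquitin ligases RNF8 (0.20, SE 0.14) and RNF168 (0.22, SE 0.19) were on the other side of 0. Of 8 partners of macroH2A and H1, 7 were above 0, with a median of 0.03, and LBR (0.10, SE 0.17), CBX3 (0.05, SE 0.12) and CBX5 (-0.04, SE 0.11) moved by no more than their errors.

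**Figure D5:**
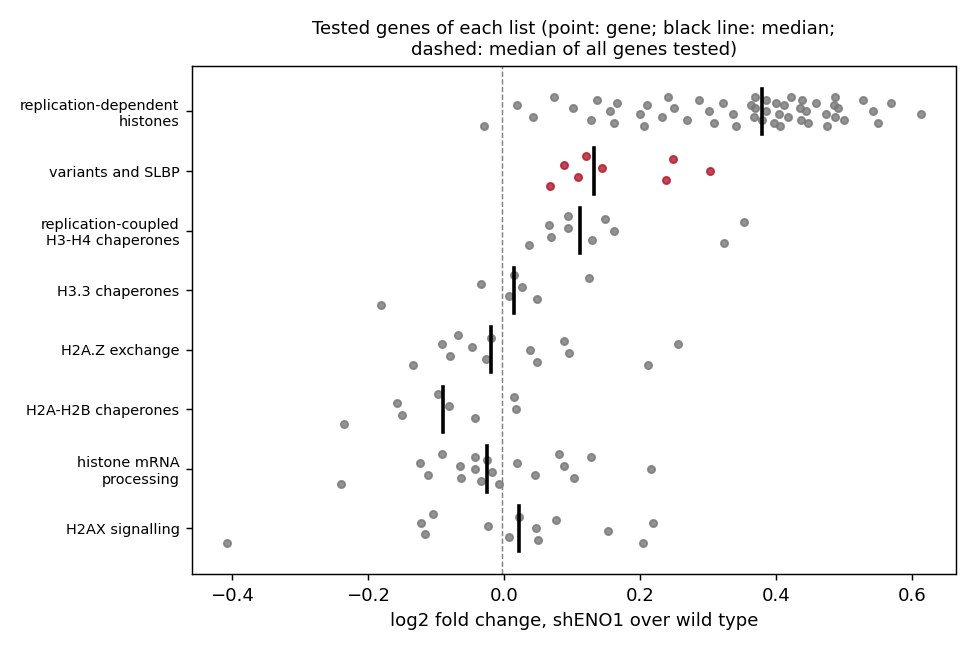
Log2 fold change of shENO1 over wild type for the tested genes of 8 lists, 1 point a gene, with the median as a black line and the median of all 17870 genes as a dashed line. The replication-dependent histones have a median of 0.38, the variants and SLBP (red) 0.13, and the list labelled H2A-H2B chaperones -0.09. No point passed the test.

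Other variants were mostly at or near 0. Of 11 further variant genes, 6 were at 0 in all libraries (H2AFJ, H2AFB2, H2AFB3, H2BFM, H2BFWT and H1FOO), and only CENPA, the H3 variant of centromeres, was tested, at 67.2, 68.2 and 58.0 FPKM in shENO1 libraries and at 62.1, 47.8 and 58.5 FPKM in wild type libraries (0.20, SE 0.14). Reads of a variant can also be assigned to its processed copies. Of 12 rows with a symbol of such a copy, 6 were tested and 5 were at 0, and together they held 21.2–24.96 FPKM in shENO1 and 18.8–21.3 FPKM in wild type, beside 1755–2145 FPKM in shENO1 and 1485–2110 FPKM in wild type for the genes described here.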

How the data were processed

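RNA of 3 shENO1 and 3 wild type libraries was sequenced from both ends. The authors deposited FPKM values per gene, made with Cuffnorm; the submitters' processing notes also name STAR, Cufflinks, hg38 and GRCh38, without versions. The labels name a column kit for the RNA and the study's methods TRIzol, and library scaling and strand use are not given in the sources used here. Overlapping, antisense and copied genes can therefore share fragments. The deposited FPKM holds no absolute depth. Relative depth, read from the steps of values under 0.3 FPKM, was 1 to 1.28 times that of wild type replicate 1, and FPKM summed to 958697–1053890 a library.

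Genes with at least 0.5 FPKM in at least 3 libraries (17870) were compared on log2(FPKM + 0.5), a scale that understates changes of low genes, with limma 3.58.1 in R 4.3.3 (trend, two-sided, Benjamini-Hochberg over all genes, checked on simulated data). A call needed an adjusted p under 0.05 and an absolute log2 fold change over 1, as in the study, whose own test used reads. Single ratios had exact permutation tests. Between the groups, r over genes was highest for same-numbered libraries (0.31, 0.18 and 0.49, others -0.39 to 0.14). For shENO1 replicate 2 the margin was small (0.18, against 0.14 with wild type replicate 1). Values were centred within each group first, which by itself sets some r below 0. A fit with the number as a block is given. This pairing comes from the values, not the labels, and the p-values of that fit rest on it. Alternatives were other pseudocounts, filters and scalings, library weights, no trend and leaving libraries out.

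Members and lists were chosen with earlier results of these data known. Of the 10 genes the choice of symbols gave, 1 is not reported here, and likewise 2 cell type markers, so counts and medians over the lists leave them out and could differ with them. Named were the other 9 and ENO1, the 4 replication-dependent rows with the highest mean, and the 3 genes of each other list with the smallest p. For cell type markers they were the 3 highest and those at 0. MS4A1, MPO, EBF1, PAX5 and CD79A were added after their values were seen. Likewise, the restriction of replication-dependent rows to protein coding genes and the background at or above 40 FPKM were set after seeing the data. Gene identifiers were matched to GENCODE 29 (58010 of 58273 without version, all 9 genes described), the source of coordinates and RNA windows. Promoters came from RefSeq (GRCh38.p14).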

Additional observations from a re-analysis of the deposited data

How the results depend on the processing

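The filter on low values left out none of the 8 tested genes in any library. SEs of the log2 fold change reached 0.28, and they were 0.05 to 0.08 with the replicate block and 0.08 to 0.15 without both libraries numbered 3. The count of called members was 0 under every alternative run, leaving out single libraries included. The count over all genes was 0, and it was 1 with the replicate block, 4 with library weights and 2 without both libraries numbered 3, and 0 whichever single library was left out. ENO1 passed in the same 3 fits, at -2.14 with the block (limma, adjusted p = 0.00374), -2.08 with library weights (0.0325) and -2.08 without both libraries numbered 3 (0.0291), and ranged over -2.37 to -1.85 with single libraries left out. The block changed no other call.

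Signs turned only when 1 library was left out. H3F3B was at -0.13 and -0.01 when wild type replicate 1 or 2 was dropped, and at -0.14 when shENO1 replicate 3 was (range -0.14 to 0.35). SLBP was at -0.05 and -0.074 without wild type replicate 2 and shENO1 replicate 3 (range -0.07 to 0.37). The log2 ratio of H3F3A over H3F3B differed by -0.06, -0.0060 and -0.15 without shENO1 replicate 1, shENO1 replicate 2 and wild type replicate 3 (range -0.15 to 0.23), and that of H2AFZ over H2AFV by -0.0076 and -0.079 without wild type replicate 1 and shENO1 replicate 3 (range -0.08 to 0.31). The cause was not tested. Other ranges with 1 library left out were 0.15 to 0.50 for H2AFX, 0.06 to 0.54 for H2AFZ and 0.06 to 0.24 for H2AFV. They were 0.07 to 0.11 for H2AFY, 0.07 to 0.19 for H3F3A and 0.06 to 0.47 for H1FX, all with 1 sign. Over all alternatives only the range of H2AFY was wider, at 0.045 to 0.130.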
